A study of Saccharomyces cerevisiae with 4 samples.

Results

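The 10 genes described here encode enzymes of the pentose phosphate pathway in budding yeast, *Saccharomyces cerevisiae*. They are *ZWF1*, *SOL3*, *SOL4*, *GND1* and *GND2* of the oxidative branch and *RKI1*, *TKL1*, *TKL2*, *TAL1* and *NQM1* of the non-oxidative branch. They were chosen by name from the 5449 genes that the arrays measured. All 10 were found, each on 1 probe set, and all 10 lay above the background floor of 2.31 on every array.

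Transcripts were measured on 4 Affymetrix yeast arrays, 1 for each of 4 groups of haploid cells of the strain named FM391. The groups were sod1Δ cells with H2O2, sod1Δ cells without it, wild type cells with H2O2 and wild type cells without it. The sod1Δ strain lacks *SOD1*, which encodes the main superoxide dismutase of the cytosol. Treated cultures received 0.4 mM H2O2 for 20 min, and all cultures grew at 30 °C in synthetic medium lacking leucine to an OD600 of about 0.4. No group had a second array. None of the differences below therefore has a replicate check or a p-value, and each compares arrays rather than populations of cultures. A level is the deposited log2 signal of a probe set, a difference is the gap between 2 arrays on that scale, and calls of higher or lower required a gap of at least 2-fold, which is 1 on the log2 scale.

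The pentose phosphate pathway takes glucose 6-phosphate away from glycolysis. Its oxidative branch reduces NADP+ to NADPH, which glutathione reductase and thioredoxin reductase need to keep peroxide-removing enzymes running, and its non-oxidative branch interconverts sugar phosphates and supplies ribose for nucleotides. In yeast several steps have a pair of paralogous genes. *SOL3* and *SOL4* encode 6-phosphogluconolactonases, *GND1* and *GND2* encode 6-phosphogluconate dehydrogenases, *TKL1* and *TKL2* encode transketolases, and *TAL1* and *NQM1* encode transaldolases. *ZWF1* encodes the glucose-6-phosphate dehydrogenase, and *RKI1* the ribose-5-phosphate isomerase.

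The *SOD1* transcript matched the labels, at 2.42 in treated sod1Δ, 2.40 in untreated sod1Δ, 14.31 in treated wild type and 14.21 in untreated wild type. Between 5312 and 5335 genes lay above the floor on each array, and the median gene ran from 9.24 to 9.30. The 27 bacterial and phage hybridization control probe sets, which should not depend on the cells, differed by a median of 0.11 for H2O2 over untreated in sod1Δ, -0.72 for the same contrast in wild type, -0.60 for sod1Δ over wild type without H2O2 and 0.27 for the same pair with it. By these medians they were brightest on the array of untreated wild type. Single controls passed 2-fold in both contrasts that use that array. They ran from -2.10 to 0.01 for H2O2 in wild type and from -1.78 to -0.02 between the untreated strains. Whether this bears on gene differences near the threshold was not tested. Among 42 genes with 2 probe sets, the difference between 2 arrays had an SD per probe set of 0.59, 0.51, 0.31 and 0.45 for these contrasts in the same order. That SD reflects probe sets and not cultures.

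Within every pair the same partner carried the change. *SOL4*, *GND2*, *TKL2* and *NQM1* were higher after H2O2 in both strains, while *SOL3*, *GND1*, *TKL1* and *TAL1* stayed within 2-fold on all 4 arrays. *SOL4*, *GND2* and *NQM1* were also higher in untreated sod1Δ than in untreated wild type. *SOL4*, *GND2*, *TKL2* and *NQM1*, called the responsive copies from these same values, had their highest level in treated sod1Δ and their lowest in untreated wild type. *ZWF1* was about 2-fold higher after H2O2 in both strains, and *RKI1* was lower in both.

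**Figure D1:**
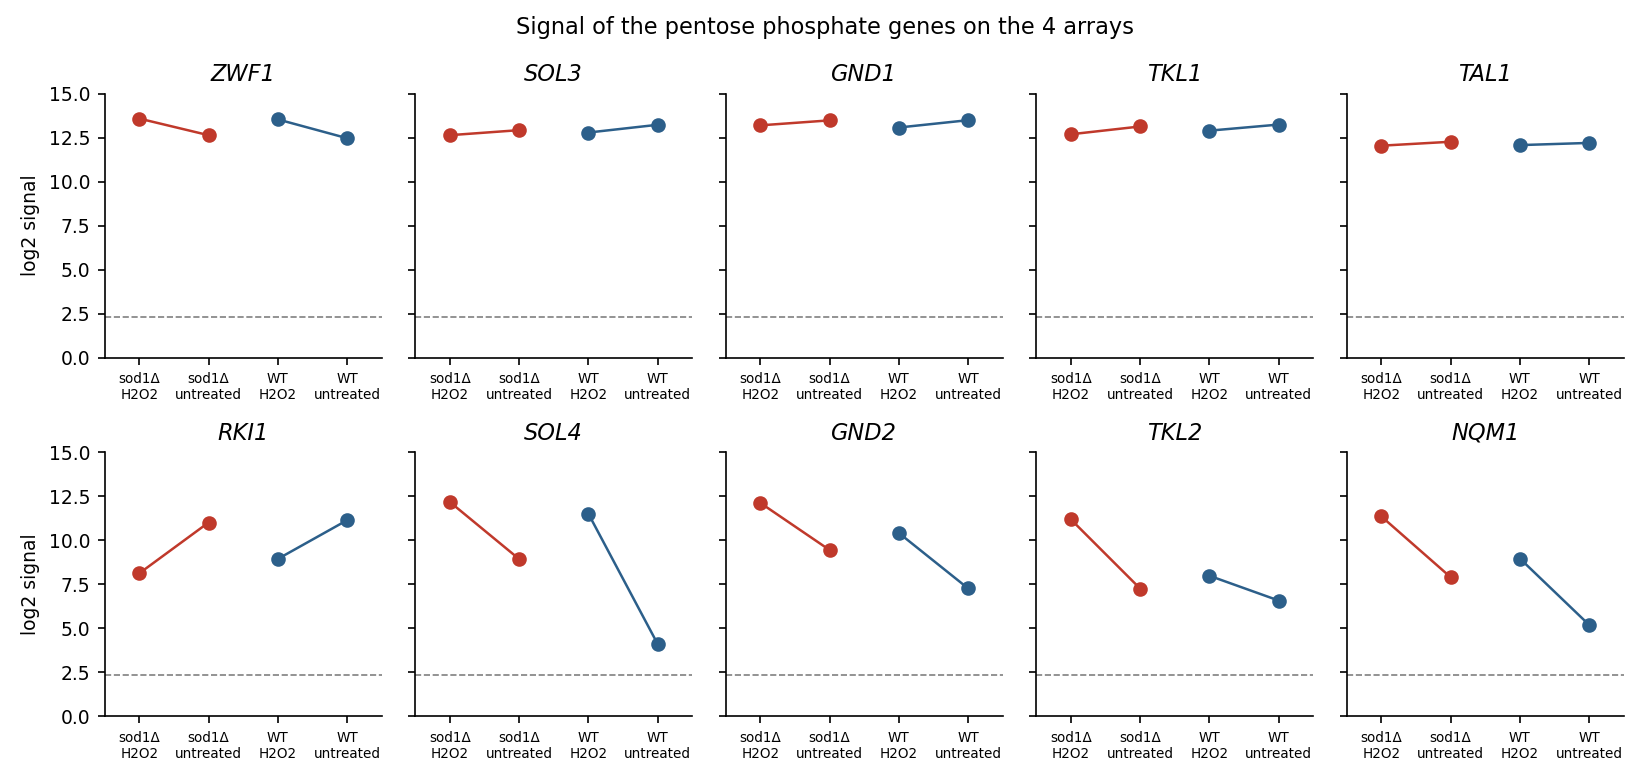
Deposited log2 signal (vertical axis) of each of the 10 genes on the 4 arrays (horizontal axis), with sod1Δ in red and wild type in blue, 1 point per array and the 2 arrays of a strain joined by a line. The dashed line marks the background floor of 2.31. *SOL4*, *GND2*, *TKL2* and *NQM1* sit lowest in untreated wild type, at 4.11, 7.25, 6.56 and 5.18, and the panels of *SOL3*, *GND1*, *TKL1* and *TAL1* are nearly flat.

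The first step of the oxidative branch is the glucose-6-phosphate dehydrogenase of *ZWF1*. Its level was 13.58 in treated and 12.63 in untreated sod1Δ, and 13.53 in treated and 12.46 in untreated wild type. Both treated arrays stood above both untreated arrays. The difference with H2O2 was 0.94 in sod1Δ, which is 1.92-fold and just short of the threshold, and 1.07 in wild type, which is 2.10-fold and just past it. The responses of the strains differed by -0.12, less than the spread between probe sets, although *ZWF1* was called in wild type and not in sod1Δ.

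In wild type the lactonase pair *SOL3* and *SOL4* was the most divided of the 4 pairs. *SOL3* was at 12.63 in treated and 12.92 in untreated sod1Δ, and at 12.78 in treated and 13.22 in untreated wild type, a range of 0.59 over all arrays. *SOL4* was at 12.16 in treated and 8.92 in untreated sod1Δ, and at 11.50 in treated and 4.11 in untreated wild type, a range of 8.06. The treated arrays were close to each other for *SOL4*, and untreated wild type lay far below the other 3 arrays. H2O2 over untreated was 3.24 (9.44-fold) in sod1Δ and 7.40 (169-fold) in wild type, where *SOL4* ranked 9 among 5358 genes. Without H2O2 the strains differed by 4.82 (28.2-fold), which ranked 2 among 5344 genes, and with H2O2 by 0.66, under 2-fold. Both of the largest *SOL4* differences rest on the untreated wild type array. After 32 was added to the linear signal, which damps dim probe sets, they were 5.90 in place of 7.40 and 3.39 in place of 4.82.

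The dehydrogenase pair showed the same division with a smaller gap. *GND1*, whose product carries most of this activity in growing yeast, was at 13.19 in treated and 13.47 in untreated sod1Δ, and at 13.07 in treated and 13.48 in untreated wild type. *GND2* was at 12.11 in treated and 9.43 in untreated sod1Δ, and at 10.40 in treated and 7.25 in untreated wild type. The *GND2* levels of treated cells lay above those of untreated cells in either strain, and sod1Δ lay above wild type in either condition. *GND2* was higher with H2O2 by 2.68 (6.39-fold) in sod1Δ and by 3.15 (8.86-fold) in wild type. It was higher in sod1Δ than in wild type by 1.71 (3.27-fold) with H2O2 and by 2.18 (4.53-fold) without it.

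In the non-oxidative branch, *RKI1* went the other way. Its isomerase makes ribose 5-phosphate from ribulose 5-phosphate. *RKI1* was at 8.11 in treated and 10.99 in untreated sod1Δ, and at 8.92 in treated and 11.12 in untreated wild type, so that both treated arrays lay below both untreated arrays. It was lower with H2O2 in each strain, with a difference of -2.89 in sod1Δ and -2.20 in wild type. After H2O2 its level in sod1Δ differed from wild type by -0.82, short of 2-fold, and without H2O2 by -0.13. It was the only gene of the 10 called lower in any comparison.

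Transketolase moves carbon units between sugar phosphates, and *TKL2* had the widest gap between the treated strains of the 10 genes. *TKL1* was at 12.68 in treated and 13.13 in untreated sod1Δ, and at 12.89 in treated and 13.23 in untreated wild type. *TKL2* was at 11.17 in treated and 7.24 in untreated sod1Δ, and at 7.97 in treated and 6.56 in untreated wild type. Treated sod1Δ alone was high for *TKL2*, and the other 3 arrays lay within 1.41 of each other. H2O2 over untreated was 3.93 (15.2-fold) in sod1Δ and 1.41 (2.65-fold) in wild type. The treated strains differed by 3.20 (9.20-fold), which ranked 6 among 5341 genes, and the untreated strains by 0.68, under 2-fold.

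The transaldolase pair resembled the dehydrogenase pair. *TAL1* was at 12.04 in treated and 12.26 in untreated sod1Δ, and at 12.07 in treated and 12.19 in untreated wild type, a range of 0.22 that was the narrowest of the 10 genes. *NQM1* was at 11.34 in treated and 7.89 in untreated sod1Δ, and at 8.95 in treated and 5.18 in untreated wild type. The order of its levels was that of *GND2*, and also of *SOL4*, *TKL2* and *ZWF1*, with treated sod1Δ highest and untreated wild type lowest. *NQM1* was higher with H2O2 by 3.45 (10.9-fold) in sod1Δ and 3.77 (13.6-fold) in wild type. It was higher in sod1Δ by 2.39 (5.24-fold) with H2O2, rank 15 among 5341 genes, and by 2.71 (6.54-fold) without it, rank 23 among 5344. With 32 added to the linear signal, 2 of these differences moved beyond the spread between probe sets, to 2.95 for H2O2 in wild type and 1.98 between the untreated strains.

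**Figure D2:**
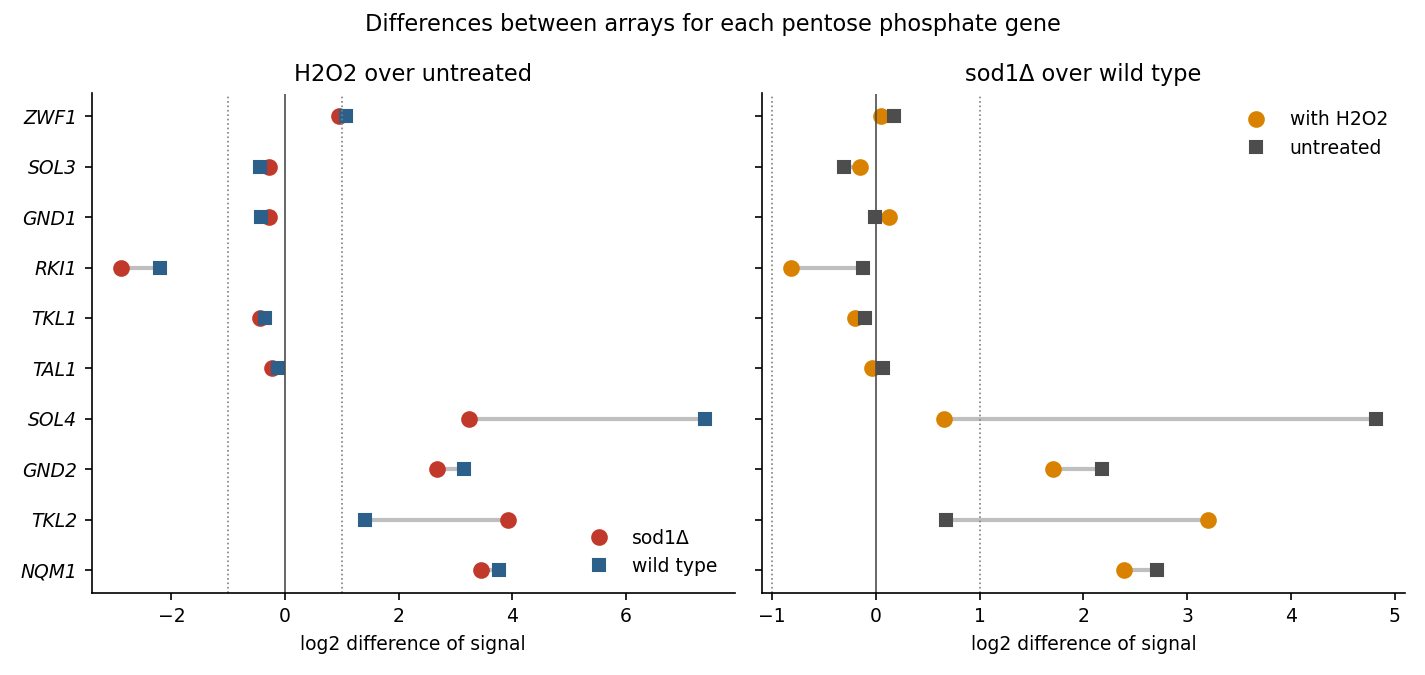
Log2 difference of signal for each gene (rows), for H2O2 over untreated in sod1Δ and in wild type (left) and for sod1Δ over wild type with H2O2 and untreated (right). Dotted lines mark 2-fold. *SOL4* and *TKL2* have the widest gaps between their 2 points, with *SOL4* at 3.24 in sod1Δ and 7.40 in wild type and *TKL2* at 3.93 in sod1Δ and 1.41 in wild type on the left, while *GND2* and *NQM1* have points close together on each side.

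Counted over the 10 genes, 4 were higher and 1 was lower with H2O2 in sod1Δ, where 14.6% and 15.8% of 5341 genes were higher and lower. In wild type 5 were higher and 1 lower, against 17.1% and 16.1% of 5358 genes. The share of higher genes thus stood above that of all genes, and the 1 lower gene of 10 did not. The 10 were chosen with earlier results of these data known, so these counts describe them and are no test. The median difference of the 10 was 0.36 in sod1Δ and 0.47 in wild type, against -0.03 for all genes in each. These medians hide the division by copy. *SOL4*, *GND2*, *TKL2* and *NQM1* had a median of 3.34 in sod1Δ and 3.46 in wild type. Their partners had a median of -0.28 in sod1Δ and -0.38 in wild type. The 4 were named responsive from these same differences, so the medians describe the division and are no test of it. By count the branches were much alike. In sod1Δ 2 of 5 genes were higher in each, and in wild type 3 of 5 in the oxidative and 2 of 5 in the non-oxidative branch. Their medians differed, at 0.94 in the oxidative and -0.22 in the non-oxidative branch in sod1Δ, and at 1.07 and -0.12 in wild type. With 5 genes each median is the value of 1 gene, *ZWF1* in the oxidative and *TAL1* in the non-oxidative branch.

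Between the strains, 3 of the 10 genes were higher in sod1Δ and 0 lower in each condition. With H2O2 they were *GND2*, *TKL2* and *NQM1*, where 3.07% of 5341 genes were higher and 6.33% lower. Without H2O2 they were *SOL4*, *GND2* and *NQM1*, where 3.71% of 5344 genes were higher and 3.18% lower. *ZWF1*, *SOL3*, *GND1*, *TKL1*, *TAL1* and *RKI1* were within 2-fold between the strains in both conditions. These 6 differed by -0.82 (*RKI1*) to 0.12 (*GND1*) with H2O2 and by -0.30 (*SOL3*) to 0.17 (*ZWF1*) without it.

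The study looked for genes whose induction by H2O2 was cut by over 50% in the absence of *SOD1*. In the pathway 5 genes were induced in wild type and *SOL4* alone met that rule, which 10.9% of the 915 genes induced in wild type met. Its fold in sod1Δ was 5.60% of its fold in wild type, and its response difference of -4.16 was the lowest of all 5449 genes. That number is the treated strain difference of 0.66 minus the untreated one of 4.82, so the smaller fold in sod1Δ came with a raised untreated level and no lower treated level. With 32 added to the linear signal the response difference was -2.74, still past the rule. *GND2*, *NQM1* and *ZWF1* kept 72.2%, 80.2% and 91.8% of their wild type fold in sod1Δ. *GND2* and *NQM1* were higher in sod1Δ by nearly the same amount in both conditions, so their response differences were -0.47 and -0.32, of the size of the spread between probe sets (SD 0.45). The sign of the *NQM1* value is not settled, since it was 0.34 with 32 added to the linear signal.

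With the strains exchanged, *TKL2* alone of the 4 genes induced in sod1Δ had a fold in wild type under 50% of that in sod1Δ, a rule that 7.54% of the 782 genes induced in sod1Δ met. Its response difference was 2.52, rank 8 from the highest of 5449 genes, and came from the treated strain difference of 3.20 minus the untreated one of 0.68. *SOL4* and *TKL2* therefore lay on opposite sides of the wild type response, *SOL4* through its untreated level and *TKL2* through its treated level.

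**Figure D3:**
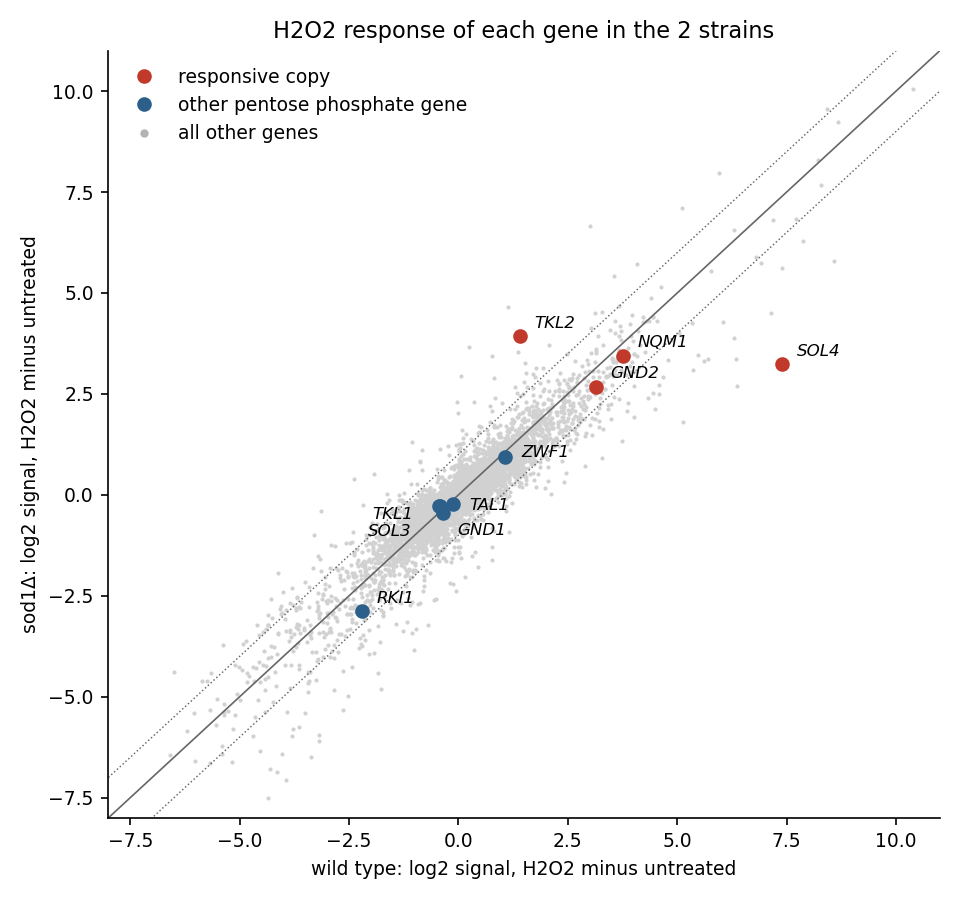
H2O2 response of each gene as log2 signal of treated minus untreated, in sod1Δ (vertical axis) and in wild type (horizontal axis), with *SOL4*, *GND2*, *TKL2* and *NQM1* (the responsive copies) in red, the other 6 pathway genes in blue and all other genes in grey. The solid line marks equal responses and the dotted lines a 2-fold gap between them. *TKL2* stands above the band at 3.93 in sod1Δ and 1.41 in wild type, *SOL4* below it at 3.24 in sod1Δ and 7.40 in wild type, and the other 8 genes lie inside it.

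The pairs were set against each other through their changes, since levels of different probe sets cannot be compared. The H2O2 response of *SOL4* exceeded that of *SOL3* by 3.53 in sod1Δ and 7.84 in wild type. The gap of *GND2* over *GND1* was 2.96 in sod1Δ and 3.56 in wild type. *TKL2* exceeded *TKL1* by 4.37 in sod1Δ and 1.75 in wild type. *NQM1* exceeded *TAL1* by 3.67 in sod1Δ and 3.89 in wild type. All 4 pairs were thus divided by over 2-fold in each strain, with a median gap of 3.60 in sod1Δ and 3.73 in wild type. In sod1Δ the widest gap was that of the transketolases, and in wild type that of the lactonases.

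Some paralogue pairs elsewhere in carbon metabolism were divided too. The sign of a gap depends on which copy is written first, and the pathway's pairs are written with the responsive copy first. Of 12 such pairs, written with the copy better known from stress or respiration first in most cases, the response of the first-named gene was over 2-fold above its partner in 6 and below it in 2 in sod1Δ, with a median of 0.87. In wild type it was above in 5 and below in 2, with a median of 0.82. The largest gaps in favour of the first-named gene were those of *PGM2* over *PGM1*, the phosphoglucomutases, at 2.07 in sod1Δ and 3.66 in wild type, and of *CYC7* over *CYC1*, the cytochrome c genes, at 2.63 in sod1Δ and 3.09 in wild type. *PFK27* minus *PFK26*, which make the glycolytic activator fructose 2,6-bisphosphate, was -1.86 in sod1Δ and -3.28 in wild type. The enolase pair *ENO1* and *ENO2* was hardly divided, at 0.14 in sod1Δ and 0.06 in wild type. The pathway's pairs were not tested against these, and all come from the same 4 arrays. Because the order of writing sets the signs, the medians of the 2 sets are not like measures.

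**Figure D4:**
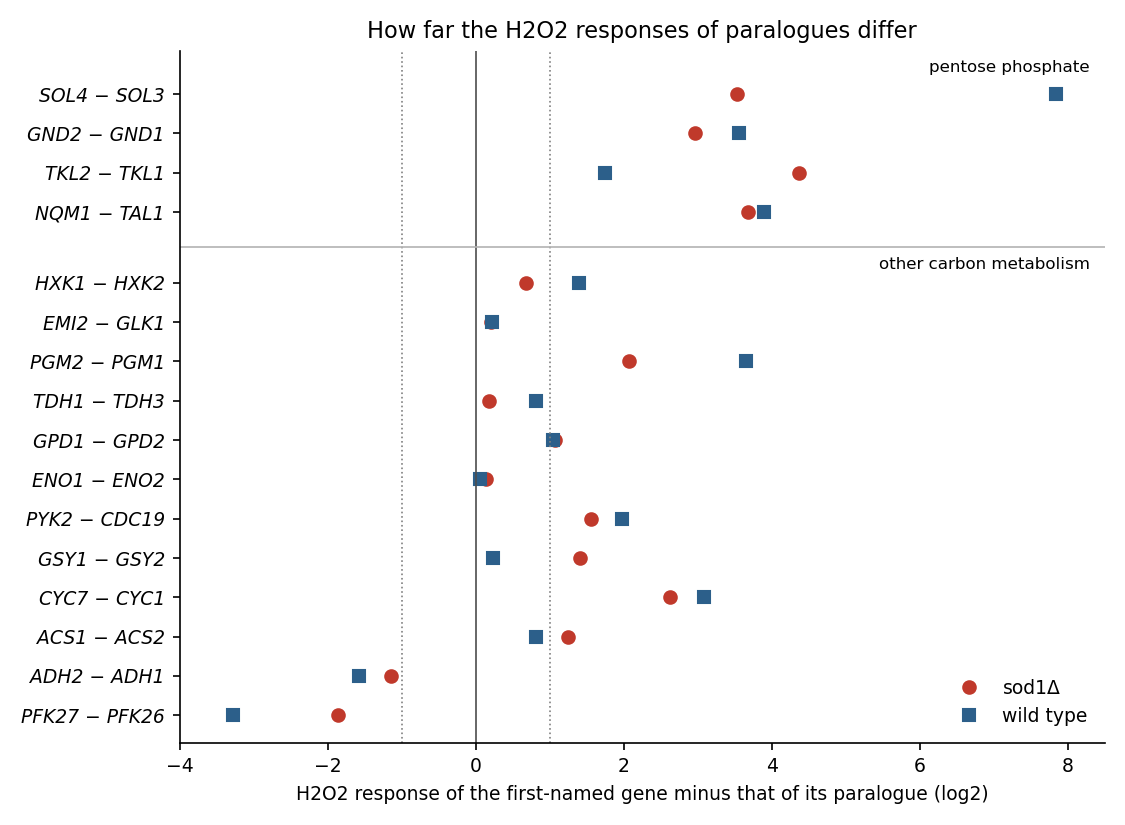
H2O2 response of the first-named gene minus that of its paralogue, in log2 units (horizontal axis), for the 4 pentose phosphate pairs (top) and 12 other pairs of carbon metabolism (bottom), in sod1Δ (red circles) and wild type (blue squares). Dotted lines mark 2-fold. The pentose phosphate pairs, each written with its responsive copy first, run from 2.96 to 4.37 in sod1Δ and from 1.75 to 7.84 in wild type. All are past the 2-fold line.

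Probe sets of paralogues can share signal where their sequences are alike, and the probe sequences were not used here. The paralogues have like coding lengths in RefSeq assembly R64, at 768 and 750 bases for *SOL4* and *SOL3*, 1479 and 1470 for *GND2* and *GND1*, 2046 and 2043 for *TKL2* and *TKL1*, and 1002 and 1008 for *NQM1* and *TAL1*. On the array of untreated wild type *SOL4* stood at 4.11 and *NQM1* at 5.18, while their partners *SOL3* and *TAL1* were at 13.22 and 12.19. *TKL2* and *GND2* stood at 6.56 and 7.25 there, with *TKL1* at 13.23 and *GND1* at 13.48. How much of these signals partners share was not tested.

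By position, *SOL4*, *GND2* and *NQM1* share a chromosome, as do *SOL3* and *GND1*. By RefSeq's gene order, 7 protein-coding genes lie between *SOL4* and *GND2*, and 20 between *SOL3* and *GND1*, so a lactonase and a dehydrogenase gene lie near each other in both places. Of the 7, 6 were measured, and 1 of these was higher with H2O2, *MGA1* next to *SOL4*, at 2.14 in sod1Δ and 2.03 in wild type. *CPD1*, on the other side of *SOL4*, was higher too, by 1.36 in sod1Δ and 1.27 in wild type. Of the 18 measured genes directly beside any of the 10, 3 were higher and 1 lower with H2O2 in sod1Δ, against 14.6% and 15.8% of all genes, and 4 were higher and 3 lower in wild type, against 17.1% and 16.1%. They included *NAR1* beside *ZWF1*, higher by 1.37 in sod1Δ and 1.36 in wild type, and *RPS7A* beside *RKI1*, which differed by -1.51 in sod1Δ and -1.15 in wild type. Others did not follow the gene beside them. The measured genes next to *TKL2*, *GND2* and *NQM1* were within 2-fold with H2O2 in both strains. *BUD8* beside *TAL1* differed by -1.24 in wild type. None of the 18 was past 2-fold between the strains in either condition. Among all genes 3.07% were higher and 6.33% lower with H2O2, and 3.71% and 3.18% without it, so none of 18 is near those shares.

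The patterns of the 4 responsive copies were set against the 5271 genes above the floor on all arrays, by the Euclidean distance between log2 levels centred on each gene's own mean over the 4 arrays. With 4 points a small distance is a description of these arrays alone. For *SOL4* the nearest genes were *TMA10* (distance 1.16), *HSP30* (1.29), encoding a plasma membrane stress protein, and *EGO4* (1.38). For *GND2* they were *YOL164W-A* (0.48), the hexose transporter gene *HXT5* (0.57) and *GUT2* (0.60), encoding the mitochondrial glycerol-3-phosphate dehydrogenase. For *TKL2* they were *MCH2* (0.79), *SNO4* (0.83) and *YFL051C* (0.84). These were dim without H2O2, at 2.58, 2.99 and 3.84 in untreated sod1Δ and 2.47, 2.61 and 3.03 in untreated wild type. *TMA10* was at 2.88 in untreated wild type. With the floor at 2.31, likeness to such genes rests partly on signals near background. For *NQM1* they were *FMP45* (0.28), the transcription factor gene *USV1* (0.65) and *ATG39* (0.81), encoding a receptor for autophagy of the nuclear envelope.

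Among the 4 responsive copies, *GND2* and *NQM1* were the closest, with a distance of 0.93. *GND2* was the gene of rank 4 in nearness to *NQM1*, and *NQM1* the gene of rank 13 in nearness to *GND2*. Ranks in the remaining pairings ran from 12, for *GND2* in nearness to *TKL2*, to 4257, for *SOL4* in nearness to *TKL2*. Other genes were thus nearer in every pairing. *TKL2* was 1.52 from *GND2* and 1.81 from *NQM1*, while *SOL4* was 2.58 from *NQM1* and 4.34 from *TKL2*.

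**Figure D5:**
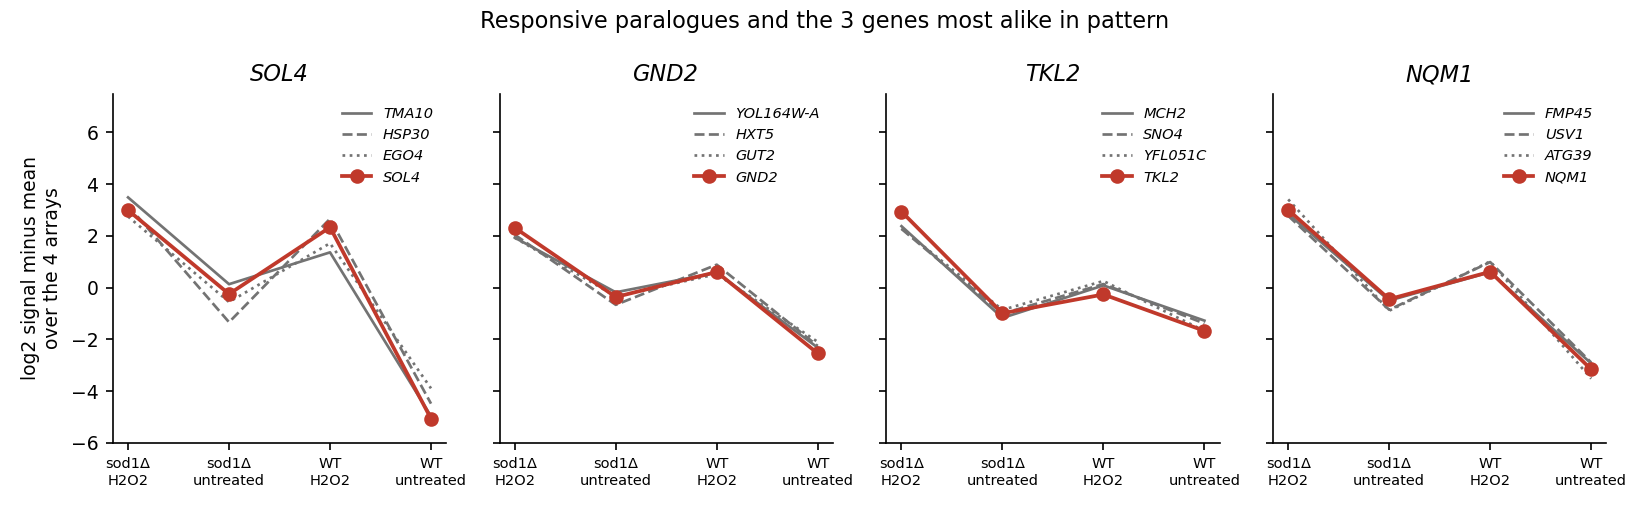
Log2 signal minus the gene's mean over the 4 arrays (vertical axis) on each array (horizontal axis), for *SOL4*, *GND2*, *TKL2* and *NQM1* (red) and for the 3 genes with the smallest distance to each (grey). *NQM1* and *FMP45* nearly coincide, at a distance of 0.28, and the nearest gene to *SOL4* is at 1.16.

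Around the 10 genes, other pentose phosphate and ribose genes moved in both directions with H2O2. Of 11 such genes 2 were higher and 3 lower in each strain, with a median of -0.58 in sod1Δ and -0.32 in wild type. Among all genes 14.6% were higher and 15.8% lower in sod1Δ, and 17.1% and 16.1% in wild type, so the higher genes were near the share of all genes. The 3 lower genes are too few to be set apart from it. The higher ones were *XKS1*, encoding xylulokinase, at 2.76 in sod1Δ and 2.70 in wild type, and *SOL1*, a relative of the lactonase genes, at 2.05 in sod1Δ and 1.89 in wild type. The lower ones, *PRS1*, *PRS3* and *PRS4*, encode subunits of the synthetase that makes phosphoribosyl pyrophosphate from ribose 5-phosphate, the product of the *RKI1* enzyme. *PRS3* differed by -1.44 in sod1Δ and -1.13 in wild type, and *PRS4* by -1.48 in sod1Δ and -1.10 in wild type. The other listed genes of this family were within 2-fold. *PRS2* differed by -0.10 in sod1Δ and -0.13 in wild type, and *PRS5* by -0.59 and -0.56. None of the 11 was past 2-fold between the strains in either condition, which is near the shares of all genes. Those were 3.07% higher and 6.33% lower with H2O2, and 3.71% and 3.18% without it.

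Among 7 genes of other NADPH sources, 2 were higher with H2O2 in sod1Δ, *IDP2* of the cytosolic isocitrate dehydrogenase at 1.73 and *POS5* of the mitochondrial NADH kinase at 1.44, while none was past 2-fold in wild type, where these differed by 0.81 and 0.96. The shares of higher genes among all genes were 14.6% in sod1Δ and 17.1% in wild type, and counts this small are not set apart from them. Their response differences, 0.92 and 0.48, were under 2-fold. The median of the 7 was 0.62 in sod1Δ and 0.18 in wild type. For sod1Δ over wild type without H2O2 the 7 ran from -0.78 to -0.04, with a median of -0.40. With H2O2 that median was 0.22. *POS5* differed between the strains by -0.54 without H2O2 and -0.06 with it. Its larger rise in sod1Δ thus came with a lower untreated level and no higher treated level. *IDP2* differed by -0.30 without H2O2 and 0.62 with it. *IDP3*, a peroxisomal isocitrate dehydrogenase gene, and *YEF1*, an NAD kinase gene, were dim, with highest levels of 3.83 and 4.60 over the 4 arrays. The response difference of *IDP3* was 1.45, past 2-fold but between dim signals.

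For the sugar kinases that supply glucose 6-phosphate and for enzymes of glycolysis, 7 genes were listed together. None was past 2-fold with H2O2 in sod1Δ and 2 were higher in wild type, against 14.6% and 17.1% of all genes. These were *EMI2*, at 0.92 in sod1Δ and 1.67 in wild type, and its paralogue *GLK1* of glucokinase, at 0.72 in sod1Δ and 1.45 in wild type. *GLK1* and the hexokinase gene *HXK1* were higher in untreated sod1Δ than in untreated wild type, by 1.08 and 1.06, just past the threshold. In that comparison 3.71% of all genes were higher. With H2O2 the strains differed by 0.35 for *GLK1* and 0.53 for *HXK1*, under 2-fold. The glycolytic gene *PFK2* differed by -0.59 with H2O2 in sod1Δ and -0.36 in wild type.

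Among transcription factors known to act on stress and NADPH genes, *YAP1*, encoding the peroxide-activated factor, was higher with H2O2 by 1.51 in sod1Δ and 1.66 in wild type. *STB5*, encoding a factor known to activate NADPH-producing genes, was at 8.37 in treated and 8.15 in untreated sod1Δ, and at 9.14 in treated and 8.07 in untreated wild type. Its difference with H2O2 was 0.22 in sod1Δ and 1.07 in wild type, with a response difference of -0.85 that was under 2-fold. *GIS1*, encoding a factor of nutrient limitation, was higher by 2.81 in sod1Δ and 2.70 in wild type. *MSN2* and *MSN4*, encoding the general stress factors, were within 2-fold in all 4 comparisons. With H2O2 *MSN2* differed by 0.14 in sod1Δ and 0.95 in wild type, and *MSN4* by 0.42 in sod1Δ and 0.88 in wild type.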

How the data were processed

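Per the labels' protocols, 50 ng of RNA per culture was amplified and biotin-labelled. The authors deposited log2 signals per probe set, made with GCRMA per the submitters' processing notes. The GCRMA version is not given in the sources used here. GCRMA compresses absent transcripts into a narrow band, so a fold from near the floor depends on background correction. Of 10928 probe sets, 5498 named 1 *S. cerevisiae* gene through the platform annotation. Probe sets were averaged per gene. The floor was the 95th percentile of 1746 *Schizosaccharomyces pombe* probe sets, and a gene was counted when its brighter array lay above it. Differences were taken with pandas 2.3.3 and numpy 2.4.6 in Python 3.11.15, and the steps were tested on simulated data. An additive model of strain and treatment would assume equal responses and was left out. Arrays give no counting depth, and their number limits the precision.

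The 10 genes, the gene lists, the 12 other pairs and the rules were chosen with earlier results of these data known. The text names all 10 genes, the regulators, up to 4 genes of each other list by largest difference, *PRS1* to complete a count, selected other pairs, and the 3 genes nearest to each responsive copy. *PRS2* and *PRS5* were named to complete the listed genes of that family. *MGA1*, *CPD1*, *NAR1*, *RPS7A* and *BUD8* were named after their values were seen. A planned search for promoter motifs was not run, since sequences were not used here. The 5 alternatives were quantile normalization, centring on the array median, adding 32 to the linear signal, the brightest probe set and the 99th percentile as floor.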

Additional observations from a re-analysis of the deposited data

Results flagged for a closer look

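The outlier check needs groups of at least 4 samples and could not be applied to groups of 1 array. None of the 10 pentose phosphate genes had strains or conditions that moved in opposite directions by more than the spread between probe sets. Among the surrounding genes, *IDP3* was picked out because its difference with H2O2 was 0.62 in sod1Δ and -0.83 in wild type, and its difference of sod1Δ over wild type was 0.66 with H2O2 and -0.78 without it. *MSN2* was picked out because sod1Δ differed from wild type by -0.46 with H2O2 and by 0.34 without it. All 6 values were under 2-fold. The response difference was 1.45 for *IDP3*, which is past 2-fold, and -0.81 for *MSN2*. *IDP3* was dim, with a highest level of 3.83. Neither response difference was tested, since each group had 1 array.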

How the results depend on the processing

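The counts of pentose phosphate genes past 2-fold, and of those meeting the 50% rule in either direction, were the same under all 5 alternatives. With quantile normalization, centring, the brightest probe set or the stricter floor, every other value of the 10 genes moved by less than the spread between probe sets. With 32 added to the linear signal some values that rest on the dim signals of untreated wild type moved further. The gap of *SOL4* over *SOL3* was 6.34 for the response in wild type and 3.70 between the untreated strains, and that of *NQM1* over *TAL1* was 3.07 and 1.91. The response difference was -2.74 for *SOL4* and 0.34 for *NQM1*, whose sign changed, and the differences of *NQM1* were 2.95 in wild type and 1.98 between the untreated strains. These shifts follow from the addition itself, which acts most on dim signals. No array could be left out, since each group had 1, and the signal of *SOL4* in untreated wild type comes from 1 probe set on 1 array. No paired analysis was possible because the labels give no replicate numbers and no result comes from a test.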
